A study of Mus musculus with 32 samples.

Results

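A scrambled antisense oligonucleotide, which has no intended target, was compared with its vehicle in the striatum of YAC128 mice. The comparison used the 8 libraries from YAC128 mice given the scrambled oligonucleotide and the 8 from YAC128 mice given artificial cerebrospinal fluid (aCSF), 16 of the 32 libraries in the series, chosen by their titles. The YAC128 line models Huntington disease and has the human huntingtin gene, with an expanded repeat, inserted on a yeast artificial chromosome. They were kept on a B6 background, and both groups carried the transgene. Each mouse had a cannula placed in the lateral ventricle under isoflurane at about 6 months of age and received 3 injections of 10 µL, the later ones 2 and 4 weeks after surgery. The scrambled group received 500 µg of oligonucleotide per injection in aCSF, and the control group received aCSF alone. Striatum was taken at 12 months of age, directly after an MRI scan, so the values describe the tissue months after the last injection. The other groups of the series, with 8 libraries each, were YAC128 mice given 500 µg of AON12.1, the oligonucleotide under study, and wild-type (WT) littermates given aCSF. The sequence and chemistry of the scrambled oligonucleotide are not given in the sources used here, so no oligonucleotide sequence is printed.

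Oligonucleotides given into the cerebrospinal fluid are taken up by neurons and glia through endocytosis, and part of the material remains in endosomes and lysosomes for a long time. Apart from base pairing, such molecules can be bound by nuclear proteins, can be sensed as foreign nucleic acid by Toll-like receptors, and can alter microglia, the resident macrophages of the brain. A scrambled oligonucleotide serves as the control for those effects that do not need the target sequence, and vehicle is the baseline against which they can be seen.

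Of 10679 genes tested, 9 were higher and 0 lower in the scrambled group at an adjusted p under 0.05 (edgeR quasi-likelihood test with Benjamini-Hochberg adjustment), which is 0.0843% of the genes tested in either direction. The 9 genes were Prmt8, Lyz2, Klk6, C1qb, C1qa, Tyrobp, Rps26, Scrt1 and Kcnh1. C1qa, C1qb, Tyrobp and Lyz2 are expressed by microglia in brain tissue, Prmt8, Scrt1 and Kcnh1 by neurons, and Klk6 by oligodendrocytes. At an unadjusted p under 0.05, 588 genes had a higher value (5.51% of those tested) and 462 a lower value (4.33%), 1050 in all or 9.83%, where 534 are due by chance. Among all tested genes 49.6% had a higher value, and the median log2 fold change was -0.00 with quartiles of -0.14 and 0.12. With 0.0843% of all genes called, 0 calls is the usual outcome for gene lists of the sizes below and says little about their members.

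**Figure D1:**
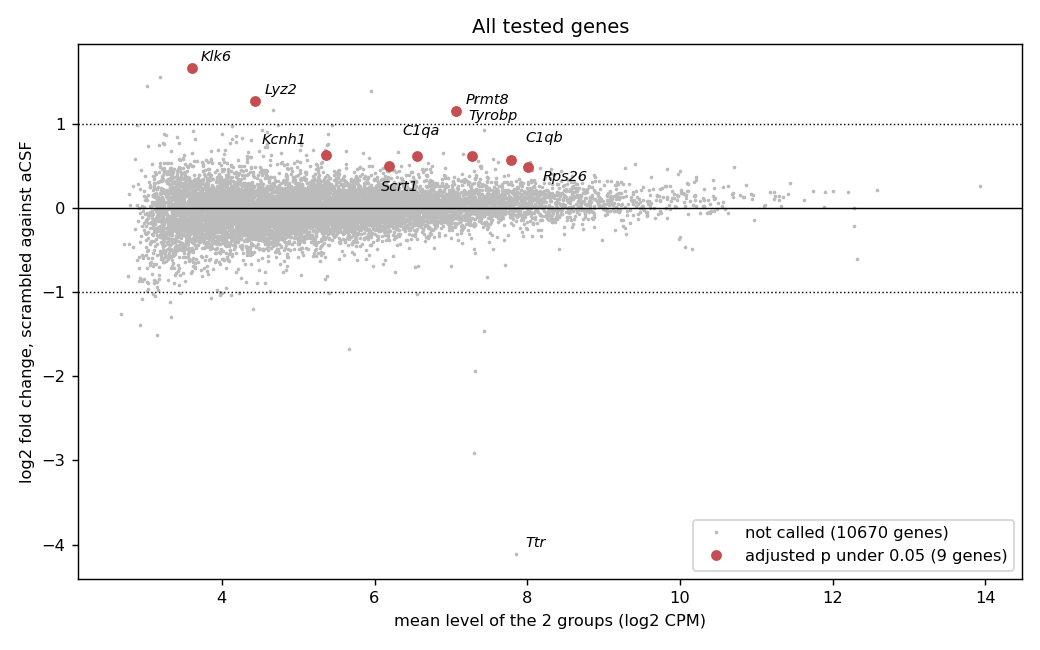
Log2 fold change of each of the 10679 tested genes, scrambled against aCSF in YAC128, plotted over the mean level of both groups in log2 CPM (counts scaled to library size), with dotted lines at 2-fold. The 9 called genes (red) all lie above 0, and Ttr is the lowest point.

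In most genes the spread between libraries left room for differences within 2-fold only. The SE of log2 fold changes had a median of 0.157, and for 10237 genes (95.9%) the 95% interval lay within 2-fold in either direction. The intervals of the called genes C1qb, C1qa, Tyrobp, Rps26, Scrt1 and Kcnh1 also lay within that limit, so it leaves room for differences of their size. Estimates beyond 2-fold were found in 30 genes, 8 higher and 22 lower. Levels are given in CPM after TMM normalization, with n = 8 libraries from separately numbered mice in each group, and fold changes as log2 values ± SE.

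RefSeq promoter windows (GRCm38.p6, 250 bases before to 50 after the start) are printed for Prmt8, the gene with the smallest p, and for C1qb and Lyz2, microglial genes that rose together. Capitals mark GAGGAA on either strand, the core of sites bound by PU.1, a transcription factor that macrophages and microglia depend on.
Prmt8, chr6:127769106-127769405, minus strand: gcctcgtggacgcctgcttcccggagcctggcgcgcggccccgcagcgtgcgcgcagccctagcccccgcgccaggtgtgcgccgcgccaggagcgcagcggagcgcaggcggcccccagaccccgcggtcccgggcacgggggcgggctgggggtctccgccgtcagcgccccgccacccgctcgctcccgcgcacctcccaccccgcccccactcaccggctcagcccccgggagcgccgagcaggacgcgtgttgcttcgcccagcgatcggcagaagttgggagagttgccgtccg
C1qb, chr4:136886151-136886450, minus strand: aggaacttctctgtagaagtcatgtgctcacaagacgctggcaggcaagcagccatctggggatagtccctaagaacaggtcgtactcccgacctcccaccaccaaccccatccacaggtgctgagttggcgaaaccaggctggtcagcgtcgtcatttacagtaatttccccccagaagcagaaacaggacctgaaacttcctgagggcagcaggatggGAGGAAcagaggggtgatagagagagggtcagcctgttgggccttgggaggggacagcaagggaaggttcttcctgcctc
Lyz2, chr10:117282223-117282522, minus strand: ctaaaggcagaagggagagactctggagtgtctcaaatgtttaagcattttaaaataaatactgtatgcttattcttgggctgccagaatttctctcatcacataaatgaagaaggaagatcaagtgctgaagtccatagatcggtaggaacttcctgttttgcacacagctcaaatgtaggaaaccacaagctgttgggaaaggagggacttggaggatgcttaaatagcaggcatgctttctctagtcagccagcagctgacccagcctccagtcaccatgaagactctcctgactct
The C1qb window held 1 match and the Prmt8 and Lyz2 windows held 0. Among windows of called genes not printed, 1 of Klk6, the oligodendrocyte gene, also held 1 match. The other Klk6 window and those of Rps26 and Kcnh1 held 0. Of 32817 windows of this length, 28.3% held GAGGAA, so a single match is common. Over the gene lists, 5 of 10 complement promoters, 4 of 10 homeostatic microglia promoters and 8 of 19 activated microglia promoters held it. These matches describe the letters only, and no binding was measured.

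The libraries held 705758 to 1248991 gene counts in the aCSF group and 743457 to 1419313 in the scrambled group, and the means of 1005390 ± 198567 and 979455 ± 204087 (SD, n = 8 each) were close (exact permutation test, two-sided p = 0.800). The share of counts outside annotated genes averaged 25.7% ± 4.92 with aCSF and 22.1% ± 2.41 with the scrambled oligonucleotide (exact permutation test, two-sided, p = 0.0915). Among the animals whose number begins with 18 the shares differed by -6.78 percentage points (2 scrambled against 4 aCSF libraries, exact p = 0.0667), and among those beginning with 19 by -0.17 points (6 against 4, exact p = 0.943). NM_001388492, the only feature in the files without a mouse Ensembl identifier, marked the transgenic animals: it lay between 104 and 188 CPM in these 16 libraries and between 0 and 7.06 CPM in WT. Its log2 fold change with the scrambled oligonucleotide was -0.11 ± 0.13 (adjusted p = 0.829), and that of mouse Htt, the endogenous huntingtin gene, was -0.07 ± 0.12 (adjusted p = 0.886), so neither passed the test. The enkephalin precursor Penk, a striatal marker, was at 1340 CPM or more in all 16 libraries.

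Markers of neighbouring brain regions varied between libraries and leaned with the groups. Cortical excitatory neuron markers had a higher value in the scrambled group for 13 of 14 tested members (median 0.46), with a summed level of 1655 to 3839 CPM in aCSF and 1894 to 5274 CPM in scrambled libraries. Markers of thalamus, hypothalamus and septum had a lower value for 8 of 8 (median -0.74, summed level 333 to 2893 against 205 to 1199 CPM). Choroid plexus and ependyma markers had a lower value for 5 of 5 (median -0.37, summed level 78.8 to 3361 against 88.7 to 156 CPM). None of these genes was called, where 0.0843% of all tested genes were. Slc17a7, the vesicular glutamate transporter of cortical neurons, stood at 689 CPM in scrambled replicate 5, while no further scrambled library exceeded 252 CPM. Oxt, the oxytocin precursor of the hypothalamus, reached 802 CPM in aCSF replicate 2, and Ttr, the transthyretin gene of the choroid plexus, reached 3191 CPM in aCSF replicate 4. Results are therefore also given without these 3 libraries, an alternative chosen after seeing the data, which called 3 genes (Prmt8, Lyz2 and Klk6). Each of the 3 had the highest mean marker level of its group for that region, but the levels were graded. The mean log2 CPM of thalamus, hypothalamus and septum markers was 7.13 in aCSF replicate 2 and 6.55 in aCSF replicate 5.

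**Figure D2:**
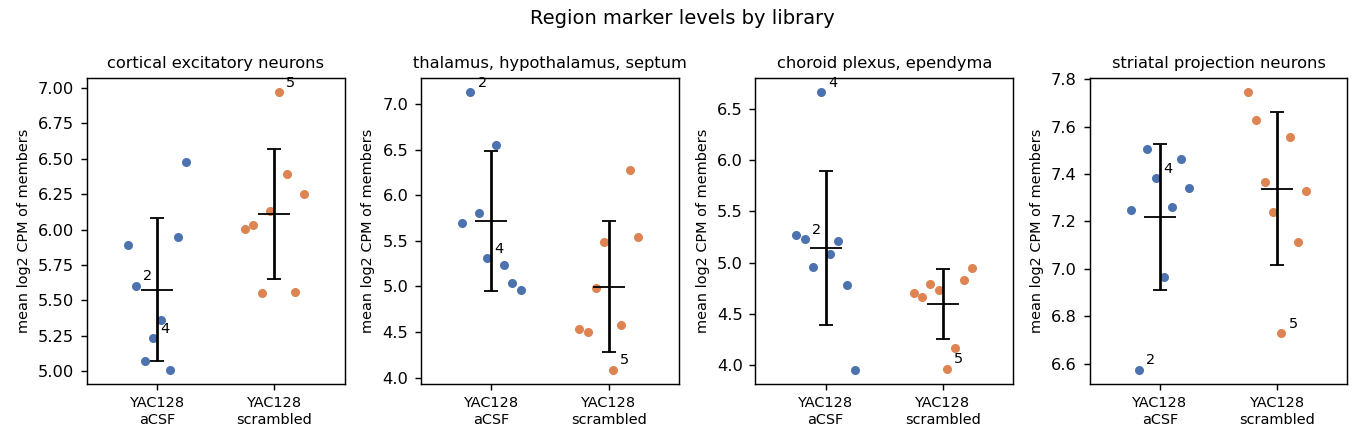
Mean log2 CPM of the tested markers of each region or cell type in every library, aCSF (blue) and scrambled (orange), with mean and SD. Numbers mark aCSF replicates 2 and 4 and scrambled replicate 5. They have the highest value of their group in the markers of hypothalamus and neighbouring regions, choroid plexus and cortex, respectively.

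Prmt8 (ENSMUSG00000030350, chromosome 6), a membrane-anchored protein arginine methyltransferase found mainly in neurons, showed the clearest difference. It lay between 50.5 and 101 CPM (median 91.6) with aCSF and between 122 and 225 CPM (median 197) with the scrambled oligonucleotide. The groups did not overlap, a pattern found in 6 genes, or 0.0562% of those tested. Prmt8 rose 2.23-fold (log2 fold change 1.16 ± 0.12, adjusted p = 1.2e-07, edgeR quasi-likelihood test). It was called in all 16 fits that left out 1 library and in all 16 other alternatives, with a log2 fold change of 1.43 ± 0.19 among animals numbered from 18 (adjusted p = 0.00538) and 0.94 ± 0.14 among those numbered from 19 (adjusted p = 0.0026). Without the 3 libraries that stood apart in region markers it was 0.99 ± 0.12 (adjusted p = 5.62e-06). WT mice given aCSF had Prmt8 at 99.8 ± 12.8 CPM and YAC128 aCSF mice at 83.2 ± 18.6 CPM (SD, n = 8 each). Mice given AON12.1 had it at 152 ± 16.6 CPM, between the aCSF and scrambled groups, and its log2 fold change against the same aCSF libraries was 0.86 ± 0.12 (adjusted p = 7.44e-05, where 0.309% of genes were called). Between the oligonucleotides Prmt8 was not called (adjusted p = 0.552, where 0.14% were). The antisense genes Gm42738 and Gm42739 overlap Prmt8 and held 8 and 0 counts in these 16 libraries, against 43 to 311 per library for Prmt8.

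C1qa and C1qb encode chains of C1q, the recognition molecule of the classical complement pathway, which microglia supply in the brain. C1qb (ENSMUSG00000036905, chromosome 4) lay between 147 and 201 CPM (median 180) with aCSF and between 203 and 342 CPM (median 264) with the scrambled oligonucleotide, and it rose 1.49-fold (0.58 ± 0.11, adjusted p = 0.0182). C1qa (ENSMUSG00000036887, chromosome 4) lay between 54.5 and 89.5 CPM (median 72.2) against 91.2 to 149 CPM (median 109), and it rose 1.53-fold (0.62 ± 0.12, adjusted p = 0.0190). For both genes every scrambled library was above every aCSF library. C1qc, the gene of the remaining chain, named here after its value was seen, averaged 67.6 ± 13.8 CPM with aCSF and 94.9 ± 22.9 CPM with the scrambled oligonucleotide (SD, n = 8 each), with overlapping groups and an adjusted p of 0.258 for its log2 fold change of 0.50 ± 0.16.

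Tyrobp and Lyz2 also belong to the myeloid cells of the brain. Tyrobp (ENSMUSG00000030579, chromosome 7), which encodes the signalling adaptor of the receptor TREM2, lay between 89.1 and 149 CPM (median 128) with aCSF and between 161 and 261 CPM (median 180) with the scrambled oligonucleotide. The groups did not overlap, and the gene rose 1.54-fold (0.62 ± 0.13, adjusted p = 0.0443). Lyz2 (ENSMUSG00000069516, chromosome 10), the lysozyme of macrophages and microglia, was sparse, with 5 to 23 counts per aCSF and 15 to 47 counts per scrambled library. Its level was 5.56 to 21.3 CPM (median 11.2) against 18.7 to 47.3 CPM (median 31.2), and 7 of the 8 scrambled libraries exceeded the highest aCSF library. Lyz2 rose 2.42-fold (1.28 ± 0.21, adjusted p = 0.00222). Its near-identical copy Lyz1 had 0 counts in both groups.

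These microglial calls differed in how far they held. Lyz2 was called in all 16 fits that left out 1 library, C1qb in 12, C1qa in 11 and Tyrobp in 3. Without the 3 libraries that stood apart, Lyz2 (1.37, adjusted p = 0.00412) was still called, while C1qb (0.59, adjusted p = 0.0819), C1qa (0.57, adjusted p = 0.157) and Tyrobp (0.67, adjusted p = 0.157) were not, with fold changes close to those from all libraries. Within the animals numbered from 18 and from 19, the log2 fold changes were 0.64 and 0.54 for C1qb, 0.53 and 0.59 for C1qa, 0.47 and 0.70 for Tyrobp and 1.23 and 1.39 for Lyz2, and none of these passed the test in the smaller sets. WT mice averaged 216 CPM for C1qb and 142 CPM for Tyrobp, above the YAC128 aCSF means of 178 and 122 CPM. Against WT the scrambled group gave 0.29 for C1qb (adjusted p = 0.369) and 0.40 for Tyrobp (adjusted p = 0.266), neither called. C1qa (0.56, adjusted p = 0.0324) and Lyz2 (1.16, adjusted p = 0.0052) were called against WT in the same fit.

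**Figure D3:**
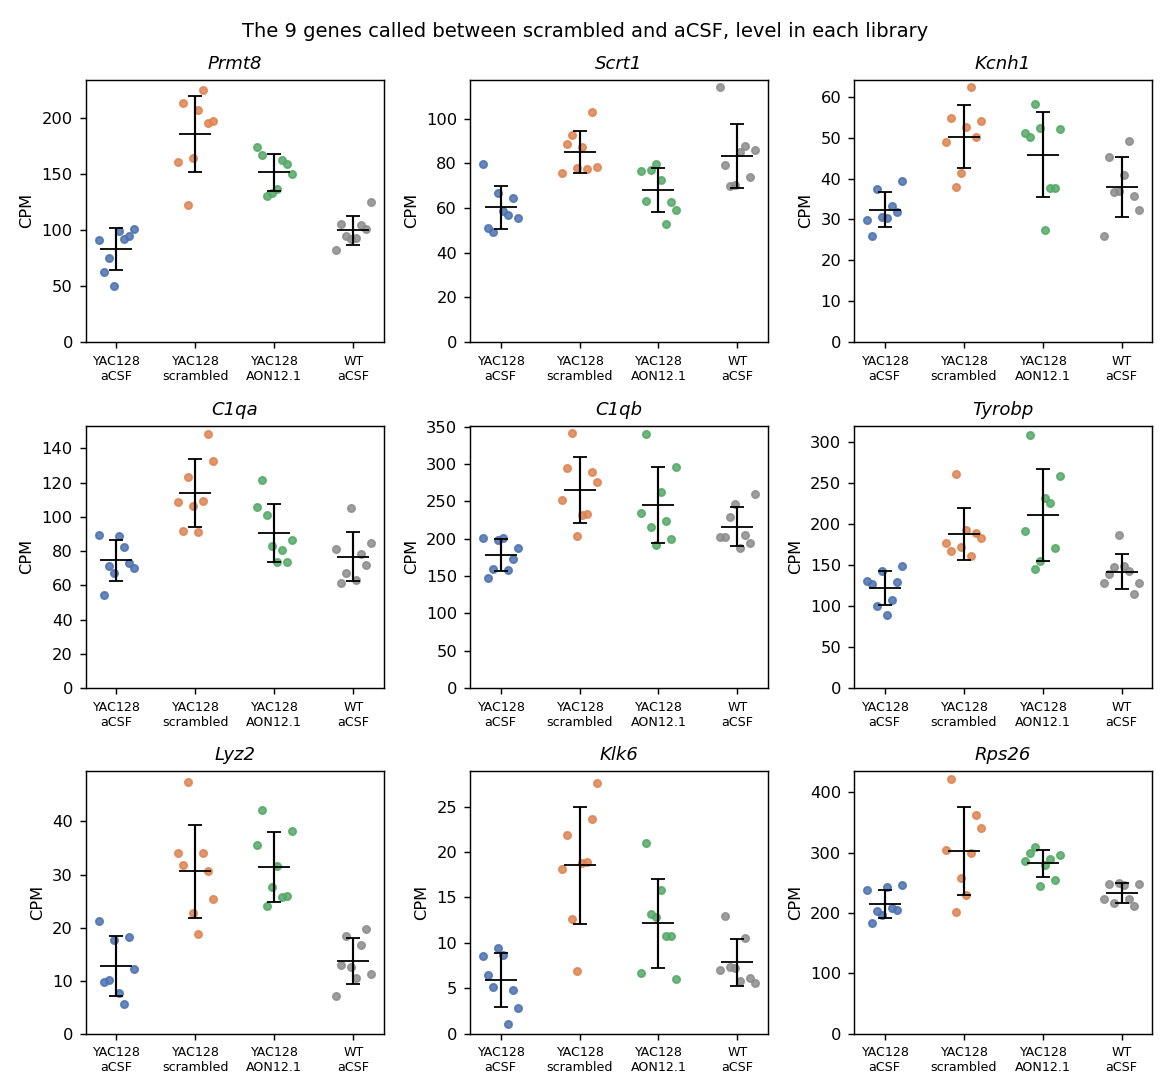
Level in CPM of the 9 genes called between the scrambled and aCSF groups, 1 point per library, with mean and SD (n = 8 per group), in YAC128 aCSF, YAC128 scrambled, YAC128 AON12.1 and WT aCSF mice. The scrambled and aCSF points do not overlap for Prmt8, C1qa, C1qb and Tyrobp.

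Homeostatic microglia markers were not called, where 0.0843% of all tested genes were. Of 15 homeostatic microglia markers 13 were tested, 8 with a higher and 5 with a lower value, 0 called, and their median log2 fold change was 0.10 against -0.00 over all genes. Their summed level was 365 to 514 CPM with aCSF and 441 to 506 CPM with the scrambled oligonucleotide. P2ry12, the purinergic receptor of resting microglia, lay between 15.6 and 28.6 CPM with aCSF and between 13.8 and 27.5 CPM with the scrambled oligonucleotide, a log2 fold change of -0.14 ± 0.19 (adjusted p = 0.852). The groups overlapped over nearly their whole range. The fractalkine receptor Cx3cr1 (-0.08 ± 0.19, adjusted p = 0.927) and the CSF1 receptor Csf1r (0.10 ± 0.09, adjusted p = 0.744) gave values near 0 as well. So did Tmem119 (0.11 ± 0.15), a microglial marker named after its values were seen. The Fc receptor-like gene Fcrls had a larger estimate, with 8.49 to 24.5 CPM (median 11.6) against 18.1 to 28.4 CPM (median 23.2), but its log2 fold change of 0.79 ± 0.23 did not pass the test (adjusted p = 0.242). Siglech had a value of 0.29 ± 0.13 and Olfml3 one of -0.33 ± 0.19 (adjusted p = 0.483 and 0.579). In bulk tissue, more cells of a type and more RNA of a gene per cell cannot be told apart.

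Among 22 markers of activated microglia 15 were tested, 13 with a higher and 2 with a lower value. Of the 15, Tyrobp and Lyz2 rose, where 0.0843% of all tested genes were called. The median of the 15 was 0.15. Their summed level, most of it from Apoe and ferritin genes that other cells also express, was 5867 to 8123 CPM against 6384 to 8864 CPM. Trem2, the lipid-sensing receptor that signals through Tyrobp, lay between 19.5 and 39.7 CPM (median 23.6) with aCSF and between 28.6 and 56.8 CPM (median 40.3) with the scrambled oligonucleotide. These ranges overlapped, and the log2 fold change of 0.64 ± 0.17 had an adjusted p of 0.240. Cd68, a lysosomal membrane protein of phagocytes, named after its value was seen, had a value of 0.37 ± 0.20 (adjusted p = 0.562). The 7 members below the filter were too sparse to test and together held 109 counts over the aCSF and 132 over the scrambled libraries. Spp1 summed to 47 and 51 counts, Ccl6 to 25 and 17, and Cst7 to 2 and 12.

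Markers of border macrophages and blood immune cells were near the detection limit. None of 16 was tested, and together they held 54 counts in the 8 aCSF and 42 counts in the 8 scrambled libraries. The border macrophage receptors Mrc1 and Cd163 summed to 4 and 5 counts with aCSF and to 3 and 3 with the scrambled oligonucleotide. The T cell genes Cd3e and Cd8a had 0 counts in all 16 libraries, and the monocyte receptor Ccr2 had 2 against 0. Lyz2 had 102 counts in the aCSF and 237 in the scrambled libraries, and which cells its RNA came from was not tested.

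The rest of the complement system was measured through few genes. Of 20 listed genes 8 were tested, 6 with a higher and 2 with a lower value (median 0.39). C1qa and C1qb rose, where 0.0843% of all tested genes were called. The 12 members below the filter held 218 counts over the aCSF and 158 over the scrambled libraries. Of these 12, 8 had fewer and 2 more counts with the scrambled oligonucleotide. C4b, the next component of the classical pathway after C1q, lay between 31.0 and 45.6 CPM (median 39.0) with aCSF and between 41.4 and 69.4 CPM (median 47.6) with the scrambled oligonucleotide. It was above the highest aCSF library in 6 of 8, but its log2 fold change of 0.44 ± 0.17 did not pass the test (adjusted p = 0.373). With AON12.1 the same gene was at 73.2 to 175 CPM (median 117), a log2 fold change of 1.64 ± 0.16 against the same aCSF libraries (adjusted p = 3.2e-09). Reads of C4b may be shared with its copy C4a, which held 15 and 14 counts. The central component C3 had 34 counts over the aCSF and 18 over the scrambled libraries and was not tested.

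Interferon response genes gave no call, where 0.0843% of all tested genes were called. Of 26 listed genes 7 were tested, 1 with a higher and 6 with a lower value, 0 called, with a median of -0.26 and a summed level of 160 to 223 CPM with aCSF against 142 to 207 CPM with the scrambled oligonucleotide. Ifit3b, an interferon-induced gene, lay between 10.3 and 19.9 CPM (median 15.8) with aCSF and between 4.38 and 17.9 CPM (median 8.88) with the scrambled oligonucleotide (-0.72 ± 0.25, adjusted p = 0.304). The membrane protein gene Ifitm3 had a value of -0.02 ± 0.14 (adjusted p = 0.983). Of the 19 members below the filter, 13 had fewer and 5 more counts with the scrambled oligonucleotide than with aCSF. Ifit1, an interferon-induced gene, summed to 66 counts over the aCSF and 55 over the scrambled libraries, and Irf7, the regulator that amplifies the response, to 39 and 55.

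Genes of nucleic acid sensing gave no call (0.0843% over all tested genes), and most were below the filter. Of 23 listed genes 7 were tested, 2 with a higher and 5 with a lower value, 0 called (median -0.15). Tlr9, the receptor for unmethylated CpG DNA, and Tlr8 had 0 counts in all 16 libraries, and Tlr7 had 9 counts with aCSF and 4 with the scrambled oligonucleotide, so a difference in these was not detectable at this depth. Unc93b1, which escorts these receptors to endosomes, had a value of 0.28 ± 0.21 (adjusted p = 0.679), and the kinase Irak1, which acts below them, one of -0.19 ± 0.08 (adjusted p = 0.442). Among inflammatory cytokines and NF-kB targets 8 of 21 genes were tested, 7 with a higher and 1 with a lower value, 0 called (median 0.17). The NF-kB subunit Nfkb2 had the value 0.60 ± 0.22 (adjusted p = 0.362) and the chemokine Cx3cl1 0.28 ± 0.11 (adjusted p = 0.402). The cytokine genes Tnf, Il1b and Il6 had at most 2 counts in either group's sum. Antigen presentation genes had a higher value in 4 of 5 tested members, 0 called, with B2m, the light chain of MHC class I, at 53.7 to 119 CPM against 74.9 to 118 CPM (0.32 ± 0.15, adjusted p = 0.478).

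**Figure D4:**
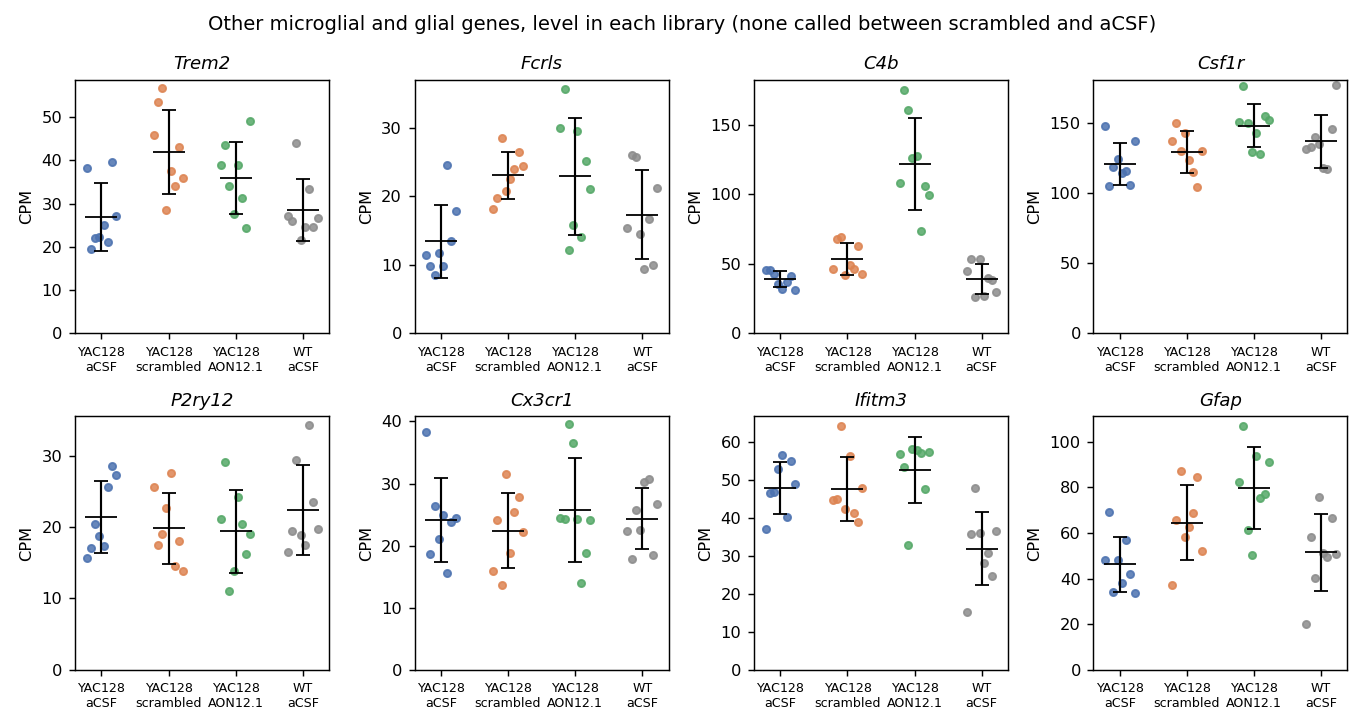
Level in CPM of 8 microglial, complement, interferon and astrocyte genes that were not called between the scrambled and aCSF groups, 1 point per library with mean and SD (n = 8 per group). The scrambled and aCSF points overlap in every panel, and C4b is highest in the AON12.1 group.

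Astrocyte genes were not called, where 0.0843% of all tested genes were. Of 24 homeostatic markers all 24 were tested, 14 with a higher and 10 with a lower value (median 0.04). The glutamate transporter Slc1a2 had 1148 to 1518 CPM (median 1272) with aCSF and 1352 to 1751 CPM (median 1506) with the scrambled oligonucleotide (0.24 ± 0.08, adjusted p = 0.326), and the calcium-binding protein S100b had a value of 0.32 ± 0.09 (adjusted p = 0.242). Among 25 genes of reactive astrocytes 8 were tested, 2 with a higher and 6 with a lower value (median -0.05). Gfap, the intermediate filament of reactive astrocytes, lay between 33.8 and 69.2 CPM (median 45.1) with aCSF and between 37.3 and 87.3 CPM (median 64.1) with the scrambled oligonucleotide. The ranges overlapped, with a log2 fold change of 0.48 ± 0.18 (adjusted p = 0.388). Serpina3n, a protease inhibitor of reactive astrocytes, had a value of -0.12 ± 0.26 (adjusted p = 0.916).

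Klk6 (ENSMUSG00000050063, chromosome 7) encodes kallikrein-related peptidase 6, a secreted serine protease made by mature oligodendrocytes. It was sparse, with 1 to 8 counts per aCSF and 7 to 26 counts per scrambled library. In CPM it lay between 1.11 and 9.39 (median 5.80) with aCSF and between 6.90 and 27.5 (median 18.8) with the scrambled oligonucleotide, and 7 of 8 scrambled libraries were above the highest aCSF library. Klk6 rose 3.17-fold (1.66 ± 0.28, adjusted p = 0.00222), and without the 3 libraries that stood apart its value was 1.85 (adjusted p = 0.00773). It entered the test through the groups where it was higher: 0 aCSF, 7 scrambled, 6 AON12.1 and 1 WT library reached the level of the count filter (10.7 CPM), and with only the 2 groups in the fit Klk6 was not tested. With no filter on low counts it gave 1.67 ± 0.28 (adjusted p = 0.00107). AON12.1 mice had Klk6 at 6.02 to 21.0 CPM (median 11.8), and WT mice at 5.63 to 13 CPM (median 7.13). Against the same aCSF libraries AON12.1 gave 1.03 ± 0.30 for this gene, which did not pass the test (adjusted p = 0.117).

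Klk6 was the only one of 36 tested oligodendrocyte genes that passed the test, where 0.0843% of all tested genes did. Of the 36, 16 had a higher and 20 a lower value (median -0.03). Opalin, a membrane protein of myelin paranodes, lay between 24.4 and 53.2 CPM (median 34.9) with aCSF and between 11.2 and 33.9 CPM (median 20.4) with the scrambled oligonucleotide (-0.73 ± 0.18, adjusted p = 0.156). S1pr5, a sphingosine-1-phosphate receptor of oligodendrocytes, lay between 21.6 and 42.1 CPM against 14.9 and 26.1 CPM (-0.66 ± 0.17, adjusted p = 0.218). The groups overlapped in both genes. The major myelin protein gene Mbp gave a value near 0 (0.10 ± 0.11, adjusted p = 0.796). Precursor genes were split 9 higher to 5 lower, 0 called (median 0.02), with Gpr17, a receptor of committed precursors, at 15.3 ± 3.14 CPM with aCSF and 22.1 ± 5.98 CPM with the scrambled oligonucleotide (SD, n = 8 each; 0.51 ± 0.21, adjusted p = 0.440).

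The remaining called genes were Rps26, Scrt1 and Kcnh1, which rose 1.40-, 1.42- and 1.55-fold. Rps26 (ENSMUSG00000025362, chromosome 10), a protein of the small ribosomal subunit, lay between 184 and 246 CPM (median 207) with aCSF and between 201 and 423 CPM (median 302) with the scrambled oligonucleotide (0.49 ± 0.10, adjusted p = 0.0443). Its groups overlapped, and its counts are uncertain because pseudogene copies of ribosomal protein genes can share reads. Scrt1 (ENSMUSG00000048385, chromosome 15), a zinc-finger repressor of neurons, lay between 49.3 and 79.6 CPM (median 57.7) against 75.6 and 103 CPM (median 82.9) (0.50 ± 0.11, adjusted p = 0.0472). In WT mice Scrt1 was at 83.3 ± 14.3 CPM (SD, n = 8), close to the scrambled group. Kcnh1 (ENSMUSG00000058248, chromosome 1), the voltage-gated potassium channel EAG1, lay between 26.0 and 39.4 CPM (median 31.1) against 37.9 and 62.3 CPM (median 51.3) (0.64 ± 0.14, adjusted p = 0.0472). These calls ended in most smaller fits: leaving out 1 library kept Rps26 in 6, Scrt1 in 2 and Kcnh1 in 3 of 16, and none of them was called without the 3 libraries that stood apart.

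Genes with the smallest p that were not called included Inhba, the activin A subunit gene that neuronal activity induces. It lay between 7.61 and 27.0 CPM (median 15.4) with aCSF and between 18.1 and 93.2 CPM (median 25.6) with the scrambled oligonucleotide (1.17 ± 0.26, adjusted p = 0.0599). The Ttr value of -4.12 ± 0.91 (adjusted p = 0.0599) rested on aCSF replicate 4: without that library, aCSF replicate 2 and scrambled replicate 5 it was -0.89 ± 0.64 (adjusted p = 0.897). Among the other genes with the smallest p and a lower value, Qdpr, a dihydropteridine reductase, lay between 247 and 322 CPM (median 270) with aCSF and between 180 and 252 CPM (median 223) with the scrambled oligonucleotide (-0.33 ± 0.09, adjusted p = 0.242). AON12.1 mice had Qdpr at 305 ± 59.2 CPM and WT mice at 343 ± 18.9 CPM (SD, n = 8 each). In the same fit Qdpr was called for AON12.1 against the scrambled oligonucleotide (0.48 ± 0.09, adjusted p = 0.00892). It was also called for the scrambled group against WT (-0.65 ± 0.09, adjusted p = 3.97e-05). Magel2, an imprinted gene of the hypothalamus, had a value of -1.03 ± 0.29, the Integrator subunit paralog Ints6l -0.75 ± 0.22, AW551984 -1.19 ± 0.31, the O-glucosyltransferase Poglut1 -0.48 ± 0.14, Coprs, a cofactor of the methyltransferase PRMT5, -0.48 ± 0.14, and the thioredoxin-related gene Tmx4 -0.36 ± 0.10. Their adjusted p-values lay at 0.218 for AW551984 and at 0.242 for the others.

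Genes of striatal projection neurons, the cells most affected in Huntington disease, gave no call (0.0843% over all tested genes). Of 37 tested genes shared by both pathways 30 had a higher and 7 a lower value (median 0.16), with a median of 0.52 among animals numbered from 18 and 0.02 among those numbered from 19, and 0.16 without the 3 libraries that stood apart. Ppp1r1b, which encodes the dopamine-responsive phosphatase inhibitor DARPP-32, lay between 442 and 1067 CPM (median 904) with aCSF and between 439 and 1478 CPM (median 989) with the scrambled oligonucleotide (0.27 ± 0.19, adjusted p = 0.661). Indirect-pathway genes were higher in value in 6 of 7 (median 0.14) and direct-pathway genes lower in 6 of 8 (median -0.10), 0 called in each. Penk gave 0.14 ± 0.16 (adjusted p = 0.819) and the adenosine receptor Adora2a 0.34 ± 0.18 (adjusted p = 0.554), both of the indirect pathway. The dopamine receptor genes Drd2 and Drd1 gave 0.03 ± 0.19 and -0.14 ± 0.17 (adjusted p = 0.983 and 0.833). Among interneuron genes 4 of 12 had a higher and 8 a lower value (median -0.11). The somatostatin gene Sst and the neuropeptide Y gene Npy had values of 0.37 ± 0.11 and 0.54 ± 0.16 (adjusted p = 0.247 each). Of the lower ones, Trh and Lhx6 had values of -0.68 ± 0.42 and -0.25 ± 0.21 (adjusted p = 0.608 and 0.698).

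Synaptic and channel genes leaned to higher values, with Kcnh1 as the only call (0.0843% over all tested genes). Glutamate receptor and postsynaptic density genes had a higher value in 25 of 30 (median 0.19), vesicle and release genes in 24 of 28 (median 0.12), potassium channels in 42 of 53 (median 0.16) and sodium and calcium channels in 22 of 31 (median 0.07). The cortical markers given above leaned the same way. With cortex, choroid plexus and other-region scores as covariates, chosen after seeing the data, these medians were 0.10, -0.02, 0.06 and 0.05. Camk2a, the calcium-dependent kinase of excitatory synapses, lay between 365 and 664 CPM (median 519) with aCSF and between 551 and 959 CPM (median 720) with the scrambled oligonucleotide (0.47 ± 0.12, adjusted p = 0.199), and it was 0.24 ± 0.10 with those covariates. The potassium channel partner Kcnip3 had a value of 0.46 ± 0.12 (adjusted p = 0.218) and the calcium channel Cacna1i 0.44 ± 0.13 (adjusted p = 0.242). Of 27 immediate early genes, which neuronal activity induces, 17 had a higher value, 0 called (median 0.12). Egr3, a transcription factor among them, had the value 0.68 ± 0.19 (adjusted p = 0.242).

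**Figure D5:**
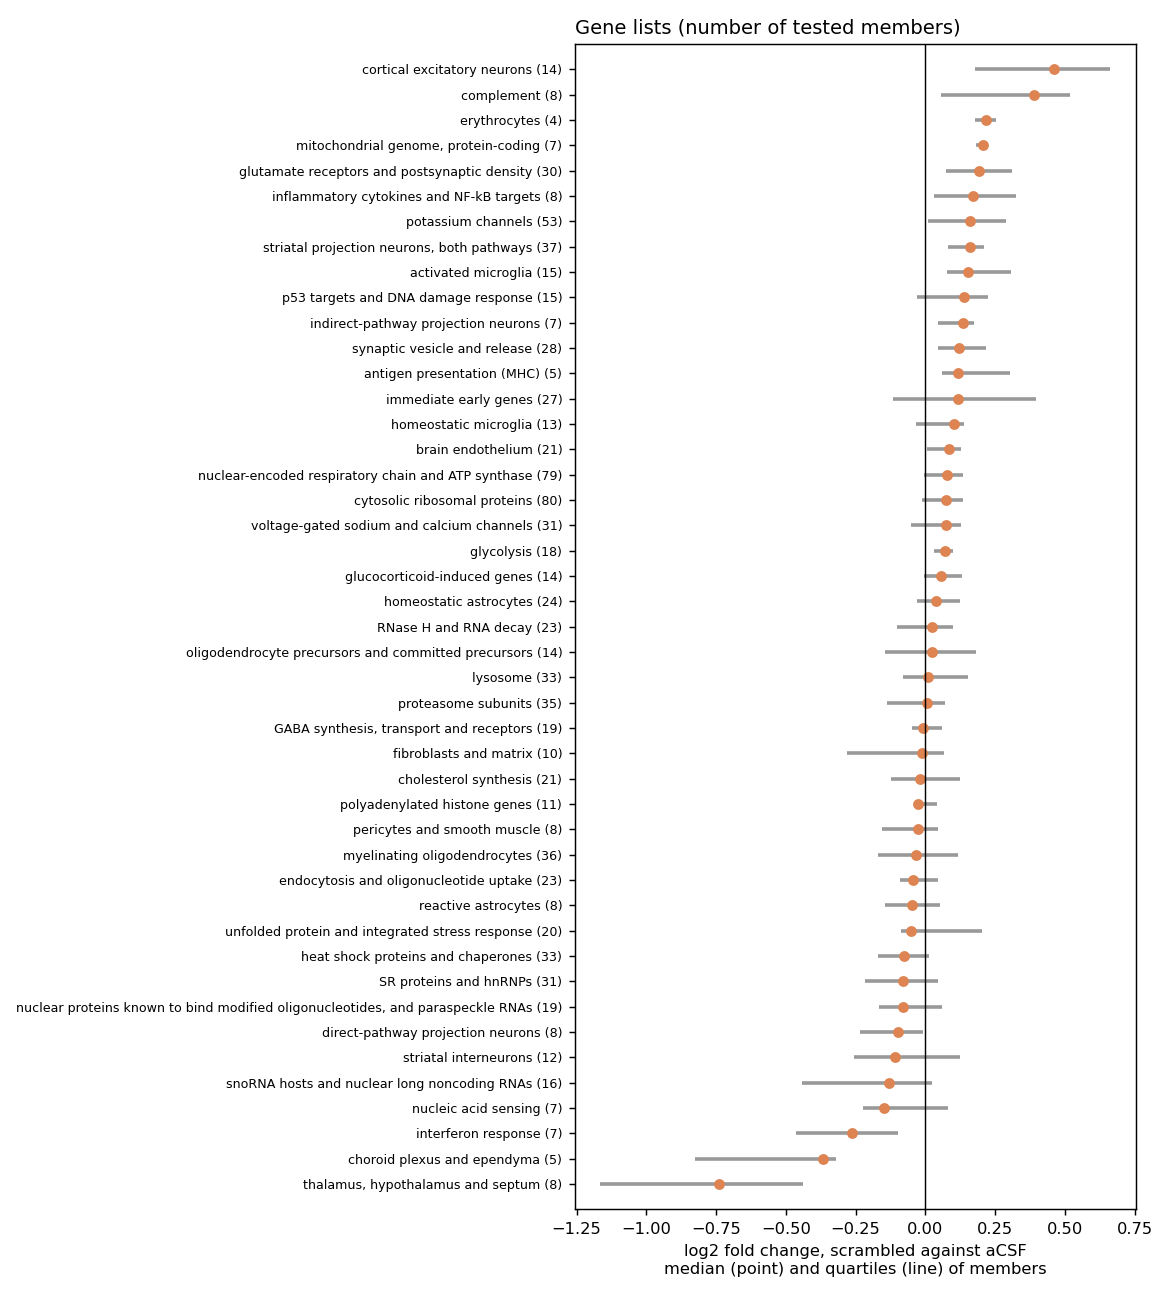
Median (point) and quartiles (line) of the log2 fold change, scrambled against aCSF, of the tested members of each gene list with 3 or more of them, ordered by median. The sex-linked genes are not shown. Cortical and complement genes lie at the top, markers of thalamus, hypothalamus and septum at the bottom, and most lists near 0.

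Genes that handle oligonucleotides inside cells gave no call, where 0.0843% of all tested genes were called. Proteins known to bind modified oligonucleotides and paraspeckle RNAs had a higher value in 6 and a lower value in 13 of 19 (median -0.08). The paraspeckle proteins Sfpq and Nono had values of 0.28 ± 0.13 (adjusted p = 0.478) and -0.22 ± 0.12 (adjusted p = 0.561), and the nucleolar protein Ncl 0.40 ± 0.15 (adjusted p = 0.373). Neat1, the long noncoding RNA scaffold of paraspeckles, gave -0.15 ± 0.27 (adjusted p = 0.892). RNase H and RNA decay genes were split 12 to 11 (median 0.02), with Rnaseh1, which cuts the RNA strand of RNA-DNA hybrids, at 8.42 ± 3.17 and 7.62 ± 2.88 CPM (SD, n = 8 each; -0.16 ± 0.28, adjusted p = 0.896). Endocytosis and uptake genes had a lower value in 16 of 23 (median -0.04), and lysosomal genes were split 17 to 16 (median 0.01). Lamp1, the main lysosomal membrane protein, gave 0.02 ± 0.09 (adjusted p = 0.981, 95% interval -0.17 to 0.21), so a change beyond that interval was not seen.

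Stress and damage programmes gave no call either (0.0843% over all tested genes). Of 15 p53 and DNA damage genes 11 had a higher value (median 0.14), and Cdkn1a, the cell cycle inhibitor p21, lay between 34.2 and 69.6 CPM (median 41.9) with aCSF and between 41.4 and 105 CPM (median 66.6) with the scrambled oligonucleotide (0.66 ± 0.17, adjusted p = 0.199). The groups overlapped, and without the 3 libraries that stood apart Cdkn1a gave 0.49 ± 0.18. Unfolded protein and integrated stress response genes had a higher value in 7 of 20 (median -0.05), with the chaperone Calr at 0.33 ± 0.09 (adjusted p = 0.242). Heat shock proteins and chaperones had a lower value in 23 of 33 (median -0.08), and SR proteins and hnRNPs, which guide splicing, in 20 of 31 (median -0.08), among them Srsf5 at -0.44 ± 0.13 (adjusted p = 0.242).

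Energy and protein synthesis genes gave 1 call (0.0843% over all tested genes). Cytosolic ribosomal protein genes had a higher value in 59 of 80 (median 0.08), Rps26 being the only call. Nuclear-encoded respiratory chain genes had a higher value in 57 of 79 (median 0.08), with Cox7c, a cytochrome c oxidase subunit, at 0.38 ± 0.11 (adjusted p = 0.247). Among 7 tested protein-coding genes of the mitochondrial genome 6 had a higher value (median 0.21). Their summed level had a median of 16577 CPM with aCSF and 18852 CPM with the scrambled oligonucleotide. The share of gene counts from all features of that genome, of which these genes are only a part, was 3.77% ± 0.284 with the scrambled oligonucleotide and 3.30% ± 0.297 with aCSF (SD, n = 8 each). This share was a measure added after seeing the files. Its difference passed a two-sided exact permutation test (p = 0.00451, and 0.0135 after adjustment for 3 library measures), with 0.69 percentage points among animals numbered from 18 and 0.29 among those numbered from 19 (exact p = 0.133 each). Glycolysis genes had a higher value in 15 of 18 (median 0.07), proteasome subunits in 19 of 35 (median 0.01) and cholesterol synthesis genes in 9 of 21 (median -0.02), 0 called in each.

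The AON12.1 group shares the aCSF libraries of this comparison, so its values stand beside these and are no second test. Against aCSF, AON12.1 raised Prmt8, Lyz2 and Tyrobp among the 9 genes, with log2 fold changes of 0.86, 1.29 and 0.79 against 1.16, 1.28 and 0.62 for the scrambled oligonucleotide. The other 6 did not pass the test with AON12.1: C1qb gave 0.46 (adjusted p = 0.0531), C1qa 0.28 (adjusted p = 0.373), Klk6 1.03 (adjusted p = 0.117), Rps26 0.39 (adjusted p = 0.0889), Scrt1 0.19 (adjusted p = 0.532) and Kcnh1 0.49 (adjusted p = 0.112). None of the 9 was called between AON12.1 and the scrambled oligonucleotide themselves, with adjusted p-values from 0.456 for Scrt1 to 0.997 for Lyz2. Between the oligonucleotides 15 genes were called (0.14%), among them Qdpr, which had its lowest group mean with the scrambled oligonucleotide. A pair of the others lay near the aCSF level with the scrambled one. The snoRNA host 1110038B12Rik was at 17.9 ± 5.06 CPM with aCSF, 19.4 ± 5.58 CPM with the scrambled oligonucleotide and 103 ± 15.8 CPM with AON12.1 (SD, n = 8 each). The linker histone gene Hist1h1c, whose counts are uncertain within its family, was at 23.8 ± 3.19, 20.2 ± 4.00 and 45.1 ± 7.66 CPM in the same order.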

How the data were processed

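Libraries were made from striatal RNA by a modified mcSCRB-seq protocol with barcoded oligo-dT primers, per the labels' protocols, so they sample transcript 3' ends. The deposited values are raw counts per feature; the submitters' processing notes name FastQC, cutadapt 2.10, STAR 2.7.5a, HTSeq 0.12.4 and GRCm39. Whether molecular identifiers were collapsed, and the strand setting, are not given in the sources used here. Of 55415 features 52081 (99.8% of counts) matched GENCODE M21 names (GRCm38). The summary lines, which hold no gene, were left out of totals and tests.

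All 32 libraries entered 1 TMM-normalized edgeR 4.0.16 quasi-likelihood fit (R 4.3.3; filterByExpr, minimum count 10, total 15), with the contrast scrambled minus aCSF and Benjamini-Hochberg adjustment over 10679 genes. The common biological coefficient of variation was 0.167. The fit was tested on simulated data. Named genes are up to 10 per direction by smallest p, without clone-named, pseudogene or sex-linked genes, up to 2 per direction in each of 47 lists, and fixed references; some of these are not reported here. The comparison, lists and references were chosen with earlier results of these data known. Alternatives used DESeq2 1.42.0, limma 3.58.1 voom, other normalizations, filters, covariates and subsets.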

Additional observations from a re-analysis of the deposited data

Results flagged for a closer look

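Among 212 sets of 8 values, each a named gene's CPM or a library measure in 1 group, 22 held a library set apart from its group by Dixon's criterion, where chance flags about 1 in 20 sets, or 10.6 here. No explanation was tested for any of them.

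Several flags fell on the 3 libraries that stood apart in region markers. In aCSF replicate 2 the myelin gene Mbp was at 1624 CPM, where the next lowest library had 2246 CPM. The same library had the immediate early gene Fos at 117 CPM and the matrix gene Sparc at 2850 CPM, where the next highest had 42.5 and 1471 CPM. In aCSF replicate 4 Ttr was at 3191 CPM against at most 151 CPM elsewhere in its group. In scrambled replicate 5 the cortical genes Neurod2 and Slc17a7 were at 297 and 689 CPM, where the next highest had 120 and 252 CPM, and Penk was at 1340 CPM, where the next lowest had 2488 CPM. In aCSF replicate 8, which is not among those 3 and was kept when they were left out, Neurod2 was at 126 CPM and Mef2c at 236 CPM, where the next highest had 58.8 and 141 CPM.

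Among glial and immune genes, Tyrobp reached 261 CPM in scrambled replicate 3 (next highest 192), Cx3cr1 38.4 CPM in aCSF replicate 1 (26.3), Ifit3b 17.9 CPM in scrambled replicate 3 (10.6), S100b 787 CPM in scrambled replicate 7 (631) and Serpina3n 31.8 CPM in scrambled replicate 8 (21.7). Gpr17 was lowest in aCSF replicate 1 at 8.52 CPM, where the next lowest had 14.1 CPM.

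The remaining flags were high values. Inhba was at 93.2 CPM in scrambled replicate 8 (next highest 37.0), Poglut1 at 37.9 CPM in scrambled replicate 3 (26.4), Tmx4 at 107 CPM in scrambled replicate 7 (87.5), and the transcription factor Klf4 at 136 CPM in aCSF replicate 3 (70.1). Rnaseh1 was at 13.8 CPM in scrambled replicate 1 (8.48), Srsf5 at 95.2 CPM in scrambled replicate 2 (70.5) and Cox7c at 606 CPM in scrambled replicate 7 (435).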

How the results depend on the processing

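The 9 calls became 5 with upper-quartile normalization, 23 with DESeq2 (22 higher, and Qdpr lower), 14 without a filter on low counts (10 higher), 3 with a minimum count of 30, 5 with only these 2 groups in the fit and 5 with the number series (the first digits of the animal number) as covariate. Within series 18 (2 scrambled against 4 aCSF libraries) and series 19 (6 against 4) 1 gene each was called. Of the alternatives added after seeing the data, libraries with at most 25% of counts outside genes gave 1 call, 3 region scores as covariates 4, and leaving out the 3 libraries that stood apart 3. Leaving out 1 library gave 3 to 13 calls: 3 without aCSF replicate 2, aCSF replicate 3 or scrambled replicate 8, 4 without aCSF replicate 4 or 6, and 5 without scrambled replicate 1 or 7. The cause of these shifts was not tested, though the subsets hold fewer libraries. DESeq2 gave no adjusted p for Lyz2, Klk6 and Kcnh1, the minimum count of 30 left Lyz2 and Klk6 untested, and the fit of only these 2 groups left Klk6 untested. When 1 library was left out, the difference in the share of counts outside genes ran from -4.74 to -2.73 percentage points (-6.78 within series 18 and -0.17 within series 19), and it passed the test without aCSF replicate 7 (-4.40, exact permutation p = 0.0367) or 8 (-4.74, exact permutation p = 0.0141). The mitochondrial share differed by 0.382 to 0.540 points when 1 library was left out, and by 0.693 (series 18) and 0.294 (series 19) within the series, where it did not pass the test. Of the list medians recomputed, 23 moved by at least the SD of the list's mean log2 CPM between libraries, pooled over both groups, and 1417 did not. A median could vanish or change sign without moving that far. That of vesicle and release genes did so with 3 region scores as covariates. No call reversed its sign. No paired analysis was possible because titles carry animal numbers, not replicate numbers shared between groups. With 5 to 23 counts per aCSF library for Lyz2 and 1 to 8 for Klk6, their folds are less precise than that of Prmt8.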

Other observations

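Of the 6 genes whose scrambled and aCSF libraries did not overlap, 2 were not called and are named here after their values were seen. Zfp91, a zinc-finger ubiquitin ligase gene, lay between 52.1 and 59.6 CPM with aCSF and between 62.5 and 78.8 CPM with the scrambled oligonucleotide (0.35 ± 0.11, adjusted p = 0.258). Its spread was small in the aCSF group (56.2 ± 2.48 CPM, SD, n = 8), and the AON12.1 group was at 56.3 ± 12.5 CPM. Sgce, the epsilon-sarcoglycan gene, was the only one of the 6 with a lower value, between 34.0 and 41.3 CPM with aCSF and between 20.8 and 33.3 CPM with the scrambled oligonucleotide (-0.38 ± 0.12, adjusted p = 0.262).

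Host genes of small nucleolar RNAs and nuclear long noncoding RNAs had a lower value in 11 of 16 (median -0.13). Of the 16, 0 were called, where 0.0843% of all tested genes were. Meg3, an imprinted noncoding RNA of neurons named after its value was seen, had the value -0.61 ± 0.32 (adjusted p = 0.542), and the nuclear RNA Malat1 -0.21 ± 0.33 (adjusted p = 0.874). With the share of counts outside genes as a covariate the median of this list was 0.01.

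Endothelial genes had a higher value in 16 of 21 (median 0.08), pericyte and smooth muscle genes in 4 of 8 (median -0.03), fibroblast and matrix genes in 4 of 10 (median -0.01) and haemoglobin and other erythrocyte genes in 4 of 4 (median 0.22), 0 called in each. GABA genes had a higher value in 8 of 19 (median -0.01), polyadenylated histone genes in 4 of 11 (median -0.02) and glucocorticoid-induced genes in 10 of 14 (median 0.06), 0 called in each. Of 45 lists with 3 or more tested members, not counting the sex-linked genes, 15 had a median over 0.1 and 6 a median under -0.1. The sex-linked genes had a lower value in 3 of 3 (median -0.31), 0 called. Over all tested genes 0.0843% were called.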
